A study of Mus musculus with 15 samples.

Results

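The acute phase proteins examined here were the serum amyloid A genes Saa1, Saa2, Saa3 and Saa4, the orosomucoid genes Orm1 and Orm2, haptoglobin (Hp), hemopexin (Hpx), lipocalin 2 (Lcn2) and C-reactive protein (Crp). They were chosen by name, as the rows of the liver and lung count tables whose gene symbol matched, and all 10 were found among the 54532 genes of each table. The study fed wild-type male C57BL/6J mice a control diet (CS) or the same diet with 2% phytosterols (PS), plant sterols that resemble cholesterol, and sequenced RNA from liver and lung. The livers came from 4 CS and 5 PS mice and the lungs from 3 CS and 3 PS mice, and 6 of the 9 mice gave both tissues. The labels give an age of 28 weeks for every mouse, whereas the study's text describes 28 weeks of feeding. The study bought its mice at 6 weeks of age, so that this feeding would make them older than the labels give. Each library is a piece of whole tissue from 1 mouse, so that fewer cells of a type and less RNA per cell cannot be told apart.

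The acute phase response is the change in plasma proteins that follows infection or injury. Cytokines, above all interleukin 6 and interleukin 1, reach the hepatocyte, where signaling through STAT3, NF-kB and the C/EBP factors raises transcription of the positive acute phase genes, while albumin and other negative acute phase genes decline. In the mouse, Saa1, Saa2 and Orm1 are major reactants of the liver, Hp and Hpx circulate at high levels and capture free hemoglobin and heme, and Crp, a major reactant in humans, responds weakly. Several members are also made outside the liver, Saa3 in macrophages, fat and epithelia, Lcn2 in neutrophils and epithelia, and Hp in lung and fat.

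Between 14410117 and 17625179 reads were counted in a liver library and between 17934930 and 19396057 in a lung library. The libraries of CS liver 2 and PS liver 1 detected fewer genes than the others (15961 and 16207 genes with a count, against 18250 to 19598 in the other livers). These are replicate numbers within a tissue and diet. PS lungs 1, 2 and 3 came from the mice of PS livers 1, 3 and 5, and CS lungs 1 to 3 from those of CS livers 1 to 3. Hepatocyte markers (10 genes, among them Alb, Apoa1 and Cps1) summed to between 90188 and 131764 CPM in the livers (CPM is the count scaled to a library of 1000000 counts). Airway secretory markers (5 genes, Scgb1a1 the most abundant) summed to between 35436 and 67507 CPM in the lungs, and at most 1.73 CPM in the livers.

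Saa1 (ENSMUSG00000074115) lies at chr7:46740497-46742980 on the minus strand of mm10 (GRCm38), beside Saa2 (ENSMUSG00000057465, chr7:46751790-46754313, plus strand), Saa4 (ENSMUSG00000040017, chr7:46727998-46732603, minus strand) and Saa3 (ENSMUSG00000040026, chr7:46711998-46715700, minus strand). Orm1 (ENSMUSG00000039196, chr4:63344560-63348163) and Orm2 (ENSMUSG00000061540, chr4:63362449-63365878) lie on the plus strand with Orm3 between them. Hpx (ENSMUSG00000030895) is at chr7:105591613-105600137, Hp (ENSMUSG00000031722) at chr8:109575128-109579172 and Lcn2 (ENSMUSG00000026822) at chr2:32384633-32388252, all on the minus strand, and Crp (ENSMUSG00000037942) is at chr1:172698055-172833031 on the plus strand. All 10 are protein-coding, and no exon of a member overlaps an exon of another gene. The transcripts of Saa1 and Saa2 are 96.7% identical over 2448 bases, the only pair at 95% or more, and those of Orm1 and Orm2 are 91.0% identical over 775 bases. How reads that match both copies were counted is not given in the sources used here, so the split between Saa1 and Saa2 is uncertain.

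The sequences before the start of transcription are shown for the members on which the liver results turn, because Saa1, Saa2, Lcn2 and Orm2 varied strongly between livers and Crp was lowest in the livers where Saa2 was highest, and for Saa3 as the serum amyloid A gene that passed the filter on low counts in both tissues. Each line is the 250 bases before the RefSeq start (GRCm38.p6), read 5′ to 3′ on the gene's own strand, with capitals marking the letters TTGCNNAA or their reverse complement TTNNGCAA, a string that C/EBP factors can recognize.
Saa1: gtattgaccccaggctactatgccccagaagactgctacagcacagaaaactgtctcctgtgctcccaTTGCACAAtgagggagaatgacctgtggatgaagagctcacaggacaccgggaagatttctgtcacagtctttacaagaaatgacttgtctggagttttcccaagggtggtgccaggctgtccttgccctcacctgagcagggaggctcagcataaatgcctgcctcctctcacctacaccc
Saa2: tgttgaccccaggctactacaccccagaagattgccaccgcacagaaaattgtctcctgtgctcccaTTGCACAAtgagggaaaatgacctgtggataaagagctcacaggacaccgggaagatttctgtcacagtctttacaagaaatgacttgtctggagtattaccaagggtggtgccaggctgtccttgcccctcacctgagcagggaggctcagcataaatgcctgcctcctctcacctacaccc
Saa3: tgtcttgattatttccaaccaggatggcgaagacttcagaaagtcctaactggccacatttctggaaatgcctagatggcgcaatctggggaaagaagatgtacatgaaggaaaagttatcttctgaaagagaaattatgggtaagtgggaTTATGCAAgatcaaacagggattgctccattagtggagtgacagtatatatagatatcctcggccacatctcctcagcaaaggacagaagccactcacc
Orm2: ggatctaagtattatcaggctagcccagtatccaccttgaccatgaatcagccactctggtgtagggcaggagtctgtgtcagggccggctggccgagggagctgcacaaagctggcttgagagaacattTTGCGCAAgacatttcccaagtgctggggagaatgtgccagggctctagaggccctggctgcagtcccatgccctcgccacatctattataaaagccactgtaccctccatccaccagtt
Lcn2: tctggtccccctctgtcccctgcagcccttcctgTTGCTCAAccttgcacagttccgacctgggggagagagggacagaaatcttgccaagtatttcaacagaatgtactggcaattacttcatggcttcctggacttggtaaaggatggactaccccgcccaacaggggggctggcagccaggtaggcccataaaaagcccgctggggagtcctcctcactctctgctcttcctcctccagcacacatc
Crp: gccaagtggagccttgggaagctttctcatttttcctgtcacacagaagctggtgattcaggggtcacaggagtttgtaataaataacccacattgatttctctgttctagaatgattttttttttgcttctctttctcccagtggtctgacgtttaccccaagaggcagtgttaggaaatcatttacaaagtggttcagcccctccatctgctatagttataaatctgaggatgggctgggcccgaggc

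These windows are chr7:46742981-46743230 (minus strand) for Saa1, chr7:46751583-46751832 (plus) for Saa2, chr7:46715677-46715926 (minus) for Saa3, chr4:63362199-63362448 (plus) for Orm2, chr2:32387740-32387989 (minus) for Lcn2 and chr1:172697806-172698055 (plus) for Crp. RefSeq promoters were matched for 8 of the 10 members, all but Hp and Orm1. The C/EBP string, searched on both strands, occurred in 7 of these 8, all but Crp, and in 9.56% of the 32851 promoters of the same length. Its first base lay 182 bases before the start in Saa1, 183 in Saa2, 99 in Saa3, 120 in Orm2 and 216 in Lcn2. The windows of Saa1 and Saa2 were identical at 238 of 250 aligned bases (95.2%), whereas Saa1 and Saa3 shared 61.6% and Saa1 and Saa4 59.2%. A STAT string (TTCNNNGAA, in 7.02% of promoters), a further string described for interleukin 6 responses (CTGGGAA, 9.1%) and an NF-kB string (1.41%) occurred in 0 of the 8 windows on either strand. A match is a description of letters and not a bound site, and a missing match says only that these letters are not in this window.

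In the liver, the members spanned a wide range of levels, compared here per length as FPKM (fragments scaled by transcript length and library depth). Hp stood at 3854 ± 1363 FPKM (SD, n = 9 livers) and ranked 20 among all genes by mean FPKM, Hpx stood at 2637 ± 417 (rank 27) and Orm1 at 1190 ± 413 (rank 53). These plasma proteins were among the most abundant transcripts of the organ with either diet. Saa4, the constitutive serum amyloid A, followed at 130 ± 36.1 FPKM (rank 425) and Crp at 115 ± 40.1 (rank 488). The other members were lower, with Saa1 at 69.4 ± 90.3 FPKM, Saa2 at 51.2 ± 98.2, Orm2 at 34.3 ± 30.9, Lcn2 at 23.3 ± 26.2 and Saa3 at 2.50 ± 1.20. PS liver 1 carried much of the means of Saa1, Saa2 and Lcn2. Without it Saa1 was at 40.3 ± 24.7 FPKM, Saa2 at 18.9 ± 17.6 and Lcn2 at 15.5 ± 12.9 (n = 8). Orm2 (33.1 ± 32.8) and Saa3 (2.34 ± 1.18) moved little, so that Saa2 came below Orm2. Neighbors in this order were compared within each liver by exact two-sided permutation of the signs of the log2 differences, adjusted over 9 pairs. Hp exceeded Hpx in 7 of 9 livers (mean log2 difference 0.48 ± 0.49 SD, exact adjusted p = 0.0422), and Hpx exceeded Orm1, and Orm1 exceeded Saa4, in 9 of 9 (both exact adjusted p = 0.0117). Saa4 and Crp did not differ beyond their spread (Saa4 higher in 4 of 9, exact adjusted p = 0.516), nor did Crp and Saa1 (Crp higher in 7 of 9, 0.0954), Saa2 and Orm2 (Saa2 higher in 1 of 9, 0.492), or Orm2 and Lcn2 (Orm2 higher in 8 of 9, 0.0820). Saa1 exceeded Saa2 in 8 of 9 livers (exact adjusted p = 0.0176) and Lcn2 exceeded Saa3 in 9 of 9 (0.0117). Together the members held between 0.880% and 1.51% of a liver's counts.

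The first question was whether PS feeding changed these transcripts in the liver. None of the 10 members was called in the edgeR test of PS against CS, in which a gene is called at an adjusted p under 0.05, and 0 of 10 had an unadjusted p at most 0.05. Over all 13195 genes tested, 0.00758% were called in either direction and 7.55% had an unadjusted p at most 0.05. The estimate was above 0 for 7 members and below 0 for 3, with a median log2 fold change of 0.34 against -0.03 for all genes tested. Adjusted p-values of the members ranged from 0.707 to 0.990. The ranges of the diets overlapped for all 10 members, where 3.63% of tested genes had no overlap. DESeq2's Wald test also called 0 of the 10.

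Values below are CPM scaled with the TMM method within the tissue, listed in the order of the replicate numbers. Saa1 encodes an apolipoprotein of high-density lipoprotein that is induced by interleukin 6. It stood at 62.5, 189, 64.0 and 195 CPM in the CS livers and at 740, 104, 77.9, 55.4 and 40.2 in the PS livers. A single PS liver was far above the rest, while the other 4 PS livers lay below the CS mean of 128 CPM. The log2 fold change was 0.67 ± 0.82 (SE; 95% interval -1.12 to 2.46; edgeR adjusted p = 0.930), and without PS liver 1 it was -0.88 (edgeR adjusted p = 0.827).

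Saa2, the close copy of Saa1 with the same role, stood at 15.6, 146, 17.9 and 66.1 CPM in the CS livers and at 770, 49.4, 45.6, 20.8 and 15.8 in the PS livers. PS liver 1 was again the highest and CS liver 2 came next. PS over CS gave a log2 fold change of 1.56 ± 1.16 (95% interval -0.99 to 4.10; edgeR adjusted p = 0.832), which was -0.90 without PS liver 1. With the counts of Saa1 and Saa2 added up as 1 gene, which avoids the split of shared reads, it was 1.02 ± 0.94 (edgeR adjusted p = 0.879). The ratio of Saa2 to Saa1 counts ran from 0.249 in CS liver 1 to 1.04 in PS liver 1.

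Saa3 and Saa4 differ from this pair in regulation, Saa3 being expressed largely outside the hepatocyte and Saa4 being constitutive. Saa3 stood at 3.48, 11.1, 2.90 and 3.14 CPM in the CS livers and at 9.58, 8.58, 8.57, 6.29 and 4.18 in the PS livers. All 5 PS livers were above 3 of the 4 CS livers, and CS liver 2 was the highest of all. This gave a log2 fold change of 0.54 ± 0.42 (95% interval -0.39 to 1.46; edgeR adjusted p = 0.849) and was 1.23 without CS liver 2 (edgeR adjusted p = 0.0885). Saa4 stood at 179, 334, 169 and 198 CPM with CS and 304, 386, 254, 317 and 267 with PS. Here too all 5 PS livers were above 3 of the 4 CS livers, and the highest was PS liver 2. Its log2 fold change of 0.47 ± 0.24 (95% interval -0.04 to 0.99) had the smallest p of the members, which did not pass adjustment (edgeR adjusted p = 0.707), and it was 0.74 without CS liver 2 (edgeR adjusted p = 0.102).

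The orosomucoids are lipocalins that bind drugs and lipids in plasma. Orm1 stood at 683, 1216, 594 and 1248 CPM in the CS livers and at 1435, 879, 880, 563 and 683 in the PS livers, a log2 fold change of -0.07 ± 0.32 (95% interval -0.77 to 0.62; edgeR adjusted p = 0.990). Orm2 was lower and more variable, at 14.8, 83.9, 6.50 and 27.4 CPM with CS and 33.2, 29.0, 25.0, 9.33 and 7.23 with PS. Its log2 fold change was -0.67 ± 0.66 (95% interval -2.11 to 0.77; edgeR adjusted p = 0.893) and turned to 0.35 without CS liver 2. Both intervals included 0 and leave a difference in either direction possible.

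Haptoglobin and hemopexin scavenge hemoglobin and heme. Hp stood at 6057, 9504, 3665 and 4094 CPM in the CS livers and at 8826, 6726, 7464, 3559 and 5062 in the PS livers, with means of 5830 ± 2661 and 6327 ± 2059 (SD). Between the diets, Hp had a log2 fold change of 0.12 ± 0.33 (95% interval -0.61 to 0.85; edgeR adjusted p = 0.980). Hpx was the steadiest member, with all livers between 2953 and 4553 CPM, and its log2 fold change of -0.06 ± 0.20 had the narrowest interval of the 10 (-0.50 to 0.38; edgeR adjusted p = 0.983).

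Lcn2 binds bacterial siderophores and so withholds iron. It stood at 18.7, 94.3, 10.9 and 10.2 CPM in the CS livers and at 221, 80.7, 62.2, 22 and 23.1 in the PS livers. All 5 PS livers were above 3 of the 4 CS livers, but CS liver 2 was higher than 4 of the 5 PS livers. The log2 fold change was 1.29 ± 0.82 (95% interval -0.50 to 3.08; edgeR adjusted p = 0.772), and it moved from 2.62 without CS liver 2 (edgeR adjusted p = 0.191) to 0.49 without PS liver 1 (0.972). Crp, a pentraxin that binds phosphocholine on microbes and dying cells, stood at 454, 115, 410 and 459 CPM with CS and 247, 490, 333, 529 and 466 with PS. It was lowest in the same pair of livers in which Saa2 and Lcn2 were highest. Its log2 fold change was 0.20 ± 0.37 (95% interval -0.62 to 1.02; edgeR adjusted p = 0.963) and was -0.09 without CS liver 2.

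**Figure D1:**
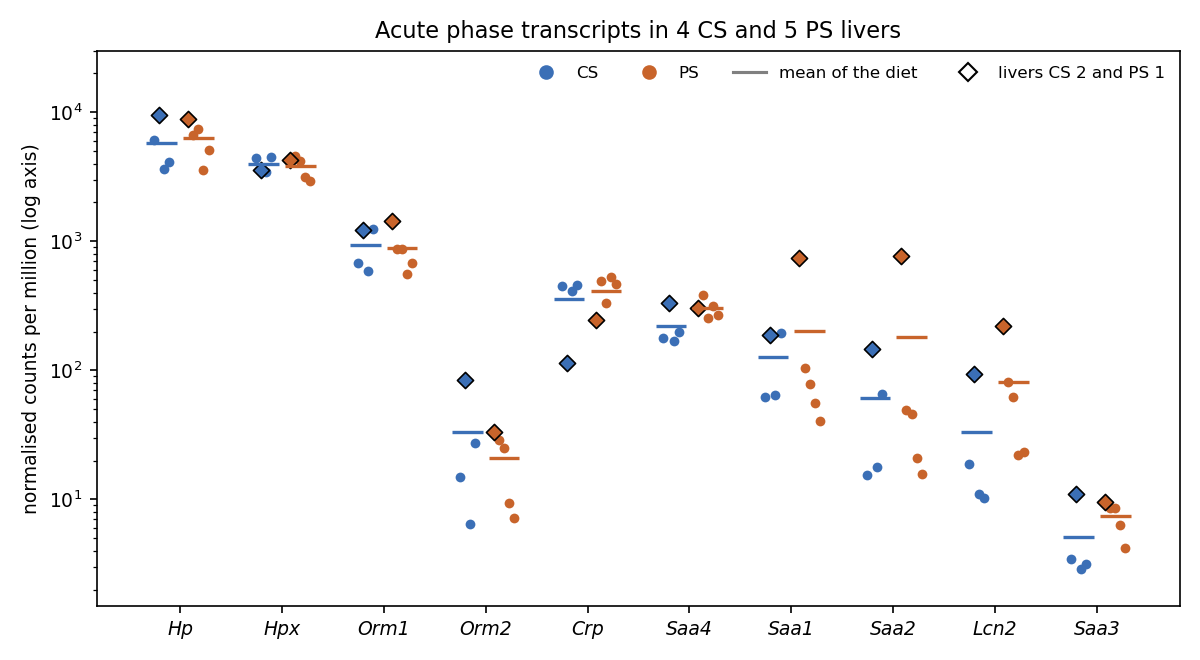
Normalised CPM on a log axis for the 10 members in 4 CS livers (blue) and 5 PS livers (orange), with the mean of each diet as a bar and CS liver 2 and PS liver 1 as diamonds. The diets overlap for every member, and the diamonds are the highest livers for Saa2 (146 and 770 CPM) and the lowest for Crp (115 and 247 CPM).

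Leaving out CS liver 2 and PS liver 1 together, a step chosen after seeing the data, gave 0 of 10 members called as well (smallest edgeR adjusted p = 0.141, for Saa4). The log2 fold change was then 0.75 for Saa4, 1.12 for Saa3, 1.82 for Lcn2, -0.63 for Saa1 and -0.01 for Saa2. Both livers had fewer detected genes than the rest, as given above. The part of library quality in their high Saa1, Saa2 and Lcn2 values was not tested.

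For several members, livers of the same diet differed widely. The variation of each member was taken as the SD of log2(CPM + 0.5) within the diets and compared with the median over all tested genes, 0.39. It was 1.95 for Saa2, 1.41 for Lcn2, 1.38 for Saa1 and 1.24 for Orm2, and of the 13195 genes only 15 varied more than Saa2, 49 more than Lcn2, 58 more than Saa1 and 108 more than Orm2. At the other end, Hpx (0.25) and Saa4 (0.34) varied less than the median gene. From the lowest to the highest liver, FPKM differed 49.0-fold for Saa2, 21.5-fold for Lcn2, 18.4-fold for Saa1 and 12.6-fold for Orm2, but 1.56-fold for Hpx. Without CS liver 2 and PS liver 1 the SDs were 0.95 for Saa2, 0.79 for Lcn2, 0.75 for Saa1 and 0.98 for Orm2, against a median of 0.30 over all genes, and 110, 262, 344 and 92 genes varied more.

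Members were also compared with Saa1 across the 9 livers, by Pearson's r and Spearman's rho of log2(CPM + 0.5) with exact permutation p-values adjusted over the 9 comparisons. Saa2 followed Saa1 with r = 0.97 (exact adjusted p = 0.00223) and rho = 0.90 (0.00913), and r stayed at 0.94 without the 2 livers farthest from the median of Saa1. The part of reads shared between these near copies in this value was not tested. Orm1 followed Saa1 with r = 0.90 (exact adjusted p = 0.00263), rho = 0.90 (0.00913) and r = 0.87 without those 2 livers, although its full range was only 2.51-fold in FPKM. Orm2 passed by rank (rho = 0.82, exact adjusted p = 0.0323) but not by r (0.69, exact adjusted p = 0.136). The other members did not pass, among them Hp (r = 0.55, exact adjusted p = 0.205), Lcn2 (0.63, 0.173), Saa3 (0.46, 0.259) and Crp (-0.55, 0.266), and Saa4 had the r nearest to 0 (0.26, 0.529). Several of these relations were stronger without PS liver 1 and CS liver 4, the livers farthest from the median of Saa1, with an r of 0.93 for Orm2, 0.77 for Lcn2, 0.74 for Hp, 0.74 for Saa3 and -0.82 for Crp over 7 livers, so the order of the members by r depended on these 2 livers. CS liver 2 stayed among these 7 livers. It was the highest of them for Orm2, Lcn2, Hp and Saa3 and the lowest for Crp (115 CPM against 333 to 529). Its part in these r was not tested. Of 10997 liver genes whose log2 CPM averaged 1 or more, Saa2 ranked 1 and Orm1 ranked 6 by r with Saa1. The named genes that were no members with the highest r were Hsd17b2, a hydroxysteroid dehydrogenase (0.92), Eef2kmt, a methyltransferase of elongation factor 2 (0.92), Ginm1 (0.90), Fibp (0.90) and Lins1 (0.89), all over 9 livers and given as a description.

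**Figure D2:**
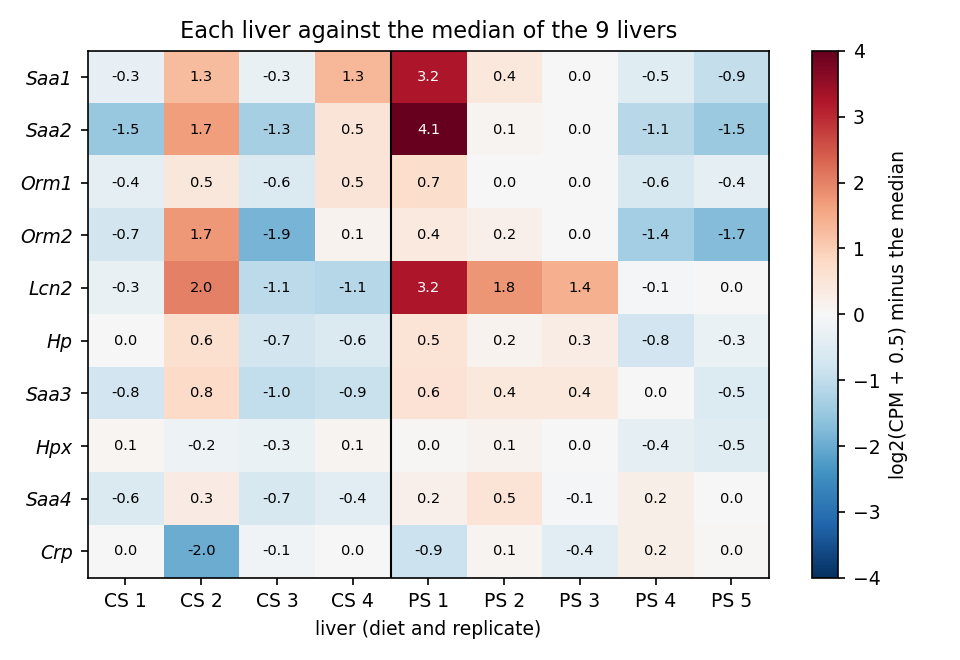
Each cell gives log2(CPM + 0.5) of a member (rows) in a liver (columns, CS left and PS right of the line) minus its median over the 9 livers. PS liver 1 stands 3.24 above the median for Saa1, 4.06 for Saa2 and 3.23 for Lcn2, and CS liver 2 stands at -1.98 for Crp.

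Other genes of the response were taken from named lists, 32 further positive acute phase genes among them. In the liver 30 of these were tested, 0 were called, and 14 estimates were above 0 and 16 below, with a median log2 fold change of -0.03, the same as over all genes. Those with the smallest p were Apcs, serum amyloid P, at 107 ± 33.1 CPM with CS and 182 ± 58.4 with PS (log2 fold change 0.77, edgeR adjusted p = 0.514), Itih3 (-0.42, 0.571) and the metalloreductase Steap4 (0.83, 0.651). The most abundant, Serpina3k, Serpina1b and the complement component C3, had log2 fold changes of -0.29, 0.12 and -0.42 with adjusted p-values from 0.747 to 0.944 (edgeR). Of 10 negative acute phase genes, all were tested and 0 were called, with Serpina6, the corticosteroid-binding globulin, at 60.2 ± 22.3 CPM with CS and 104 ± 16.5 with PS (0.79, edgeR adjusted p = 0.418) and Alb at a log2 fold change of 0.40 (0.660).

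Of 29 genes for the inducing cytokines, their receptors and the signaling below them, 23 were tested in the liver and 0 were called. Il6 was at most 0.174 CPM and Tnf at most 0.562 CPM in any liver, both below the filter on low counts. Il1b stood between 1.92 and 5.32 CPM in the CS livers and between 0.309 and 2.79 in the PS livers (log2 fold change -1.74 ± 0.54, edgeR adjusted p = 0.411). Among the receptors Il1r1 (1.30, adjusted p = 0.568) and Il6ra (0.72, 0.477) had the opposite sign in edgeR, whereas Il6st, the shared signaling subunit for interleukin 6 (-0.54, 0.619), and Lifr (-0.47, 0.747) had the same sign. Stat3 (-0.02), its feedback inhibitor Socs3 (-0.19) and Cebpd (0.15) had log2 fold changes near 0. Cebpb, which encodes a C/EBP factor, stood at 109, 260, 125 and 149 CPM with CS and 449, 155, 296, 177 and 228 with PS (0.70, edgeR adjusted p = 0.707). PS liver 1 was the highest for this gene too. Hnf4a and Cebpa, the most abundant of the list, were at 0.13 and 0.14. Of 16 receptors and handling proteins of the members' ligands, 14 were tested and 0 were called, Lrp1, the hemopexin receptor, at 0.09, and Cd36 (0.85, edgeR adjusted p = 0.741) and Fcgr2b (-0.50) among those with the smallest p.

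Markers of other cells were examined beside these values. Kupffer cell markers (5 genes, all detected) summed to between 159 and 226 CPM in the CS livers and between 51.0 and 179 in the PS livers, with 0 of 5 called and 0 of 5 above 0. Neutrophil markers (11 genes) summed to between 3.32 and 8.18 CPM in the livers, and 5 of the 11 were at 0 in CS liver 2, 4 of 11 in PS liver 1 and between 0 and 4 in the other livers. Fat cell markers (7 genes) summed to between 31.1 and 79.9 CPM with CS and between 8.19 and 27.0 with PS. This gap came from Cidec, a lipid droplet protein, at 37.0 ± 23.7 CPM with CS and 9.75 ± 6.81 with PS (log2 fold change -1.92, edgeR adjusted p = 0.290), while Cfd stood at 1.39 ± 1.23 and 1.26 ± 0.784 and Adipoq was at most 0.233 CPM. Their part in the members' values was not tested.

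In the lung, 5 of the 10 members passed the filter on low counts, and 0 of these 5 were called between the diets by edgeR, where 9.22% of 16717 tested genes were called. An unadjusted p at most 0.05 was found for 0 of 5, against 30.1% of all tested genes, and the diets overlapped for all 5, where 36% of tested genes had no overlap. The estimate was above 0 for Saa3 and Lcn2 and below 0 for Hp, Hpx and Orm1, with a median log2 fold change of -0.24 against 0.01 for all genes tested. Adjusted p-values ranged from 0.384 to 0.701.

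Hp was also an abundant transcript of the lung. It stood at 1407, 1102 and 1457 CPM in the CS lungs and at 1536, 720 and 1107 in the PS lungs, and ranked 42 of all genes by mean FPKM (764 ± 192, SD, n = 6). Between the diets the log2 fold change was -0.24 ± 0.27 (95% interval -0.86 to 0.38; edgeR adjusted p = 0.590). Hp made up between 78.9% and 95.1% of all counts of the members in a lung, in which the members together held between 0.0905% and 0.163% of the counts.

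Lcn2 came next at 44.5 ± 17.7 FPKM (rank 1157), and stood at 91.7, 98.3 and 125 CPM with CS and 153, 177 and 51.0 with PS. PS lungs 1 and 2 were the highest of the 6 and PS lung 3 the lowest. The log2 fold change was 0.27 ± 0.39 (95% interval -0.63 to 1.17; edgeR adjusted p = 0.676), and without PS lung 3 it was 0.65 and was called (edgeR adjusted p = 0.0476), in a fit in which 13.2% of all tested genes were called. The same PS lungs were highest and lowest for Saa3, at 7.03, 4.37 and 5.05 CPM with CS and 11.1, 10.2 and 1.99 with PS. Its log2 fold change was 0.50 ± 0.53 (95% interval -0.71 to 1.71; edgeR adjusted p = 0.563) and ran from 0.14 without PS lung 1 to 0.95 without PS lung 3 (edgeR adjusted p = 0.886 and 0.0525). Across the 6 lungs Lcn2 ranked 193 of 14240 genes by its r with Saa3 (0.90), and the named genes that were no members with the highest r were Nmral1 and Susd3 (both 0.99), Bcl2a1d, a relative of Bcl2 that protects from cell death (0.99), Lin9 (0.99) and Tmed5, of the secretory pathway (0.98), all given as a description.

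Orm1 and Hpx were low in the lung. Orm1 stood at 2.43, 2.88 and 1.30 CPM with CS and 2.31, 1.12 and 0.497 with PS (log2 fold change -0.76 ± 0.55, 95% interval -2.01 to 0.50, edgeR adjusted p = 0.384), and its estimate ran from -1.45 without PS lung 1 to -0.37 without PS lung 3 (edgeR adjusted p = 0.0950 and 0.643). Hpx stood at 7.88, 2.36 and 1.90 CPM with CS and 2.43, 3.57 and 3.64 with PS (-0.33 ± 0.52, 95% interval -1.52 to 0.85, edgeR adjusted p = 0.701), and its estimate turned to 0.56 without CS lung 1. CS lung 1 held the most hepatocyte transcripts, with a sum over the 10 hepatocyte markers of 156 CPM against 12.3 to 41.9 in the other lungs, and Alb at 59.5 CPM against 0.308 to 10.4. Their part in the Hpx value of that lung was not tested. The 5 members below the filter had at most 17 counts in any lung. Exact two-sided permutation tests of their log2(CPM + 0.5) gave p = 0.5 for Saa1, 1 for Saa2, 0.4 for Saa4, 0.5 for Orm2 and 0.9 for Crp, in a design of 3 against 3 whose smallest possible exact p is 0.1. Saa4 had 0 counts in all 3 PS lungs, which allows up to 0.0567 CPM by counting error alone, and its 10 counts in CS lungs were spread over 2 of the 3.

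Orm3, which lies between Orm1 and Orm2 and is no member, did not overlap between the diets in the lung, as 36% of tested genes did not, at 1.11, 1.64 and 1.03 CPM with CS and 2.25, 2.01 and 2.76 with PS. Its log2 fold change of 0.89 ± 0.35 was not called (edgeR adjusted p = 0.132). Orm3 counts in a lung were between 19 and 50.

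**Figure D3:**
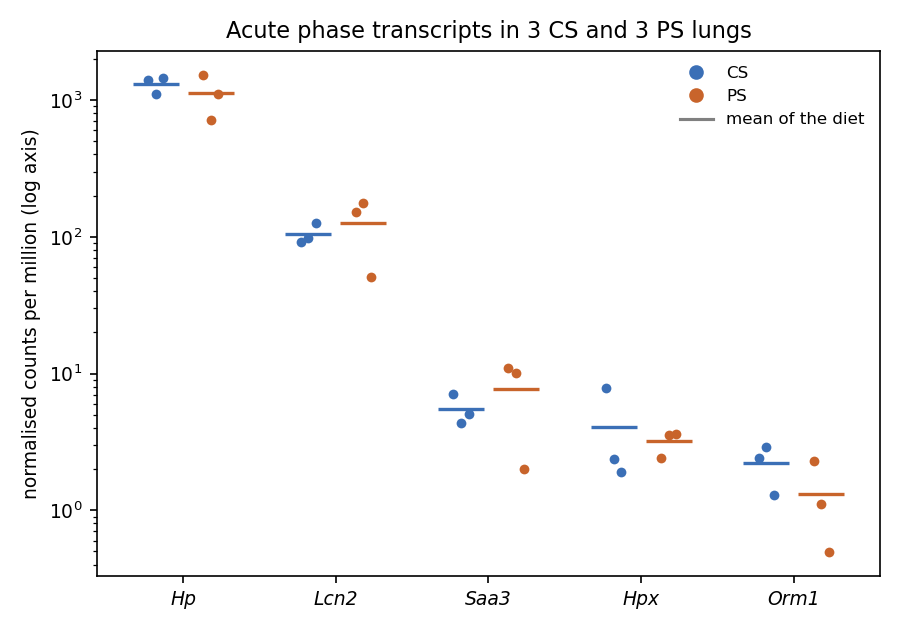
Normalised CPM on a log axis for the 5 members tested in the lung, in 3 CS (blue) and 3 PS (orange) lungs, with the mean of each diet as a bar. The diets overlap for every gene, and Hp lies between 720 and 1536 CPM while the other 4 lie between 0.497 and 177 CPM.

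In the lung order by FPKM, Hp exceeded Lcn2 and Lcn2 exceeded Saa3 in 6 of 6 lungs (both exact adjusted p = 0.0625, from an unadjusted exact p of 0.0312, the smallest that 6 lungs allow). Saa3 (2.56 ± 1.37 FPKM), Hpx (2.43 ± 1.48) and Orm1 (2.28 ± 1.20) did not differ from their neighbors beyond their spread (exact adjusted p = 0.969 for both pairs). In the 6 mice with both tissues, a relation between a member's level in the liver and in the lung did not pass for any of the 5 genes tested (exact adjusted p from 0.569 to 0.672, adjusted over 5 genes). The r was 0.56 for Orm1 (rho 0.49), 0.43 for Lcn2 (0.37), 0.39 for Saa3 (0.14), 0.39 for Hpx (0.37) and -0.26 for Hp (-0.26). Without the 2 mice farthest from the median it was -0.10, 0.57, 0.67, 0.70 and 0.079 in this order, so that 6 mice leave these relations unsettled.

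**Figure D4:**
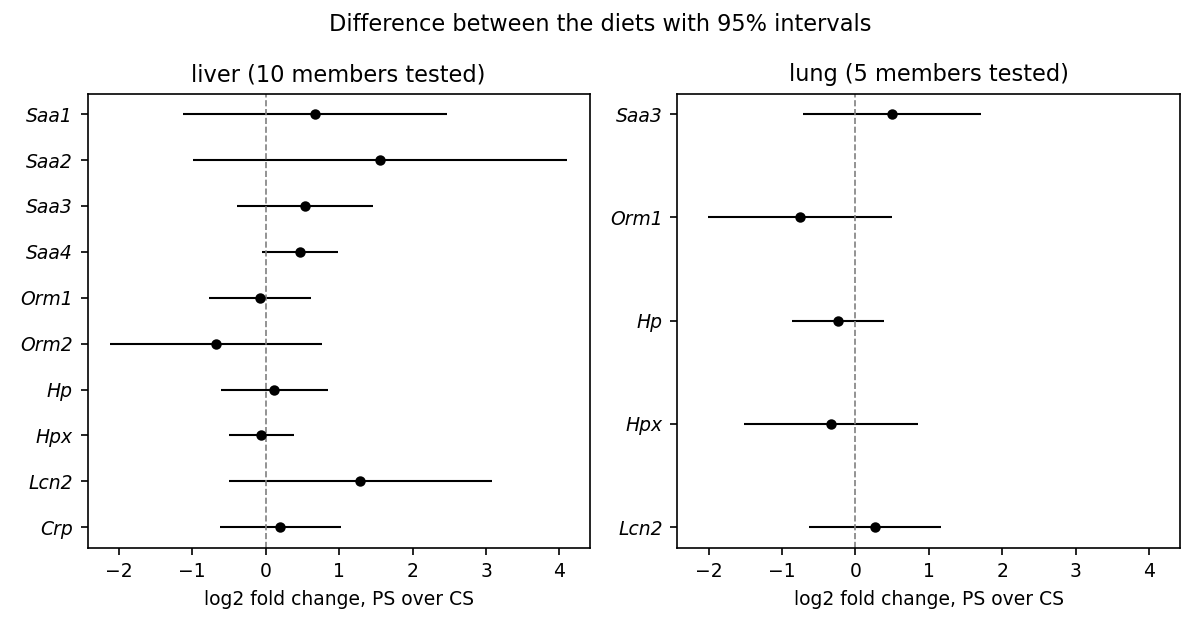
Log2 fold change of PS over CS (points) with 95% intervals (lines) from edgeR for the 10 members tested in the liver and the 5 tested in the lung. Every interval includes 0, the widest being that of Saa2 in the liver (-0.99 to 4.10) and the narrowest that of Hpx in the liver (-0.50 to 0.38).

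Of the 32 further positive acute phase genes, 21 were tested in the lung and 1 was called, lower with PS, where 9.22% of all tested genes were called. This was Cp, ceruloplasmin, the copper-carrying ferroxidase of plasma, at 344, 326 and 338 CPM in the CS lungs and 245, 180 and 163 in the PS lungs (log2 fold change -0.78 ± 0.18, edgeR adjusted p = 0.0387). The call was lost in 4 of 6 fits that left out a lung (any of the CS lungs or PS lung 2; edgeR adjusted p up to 0.126) and in the fit over all 15 libraries (0.241). Metallothionein Mt1 (0.60, adjusted p = 0.0594) and Lrg1 (0.69, 0.0598) had the next smallest p in edgeR and were not called, and C3, the most abundant, was at 0.05. Of the 10 negative acute phase genes 7 were tested and 0 were called, with Rbp4 at -0.66 (edgeR adjusted p = 0.125). Of the 29 cytokine and signaling genes 25 were tested and 0 were called. Il1b stood at 26.7 ± 15.7 CPM with CS and 17.4 ± 10.9 with PS (-0.62, edgeR adjusted p = 0.496), Tnf at 1.47 ± 0.840 and 2.19 ± 0.851 (0.58, 0.462), and Il6 was at most 1.57 CPM. Stat3 (-0.35, adjusted p = 0.245), Socs3 (0.10, 0.810), Cebpb (0.48, 0.116), Cebpd (0.53, 0.0902) and Jak2 (-0.47, 0.0659) were not called by edgeR. All 16 receptors and handling genes were tested and 0 were called, with Tlr4 (-0.73, edgeR adjusted p = 0.0582) and Cd36 (-0.73, 0.0758) having the smallest p.

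Cell type markers varied among the lungs beside these genes. Neutrophil markers (11 genes) summed to 385, 183 and 410 CPM with CS and 637, 459 and 232 with PS, so that PS lung 3, the lowest for Lcn2 and Saa3, was also the lowest PS lung for this sum. Of 9 neutrophil genes tested 1 was called, Csf3r, the receptor for granulocyte colony-stimulating factor, at 34.8 ± 5.92 CPM with CS and 72.6 ± 10.5 with PS (log2 fold change 1.06 ± 0.18, edgeR adjusted p = 0.0204), a share near that of all tested genes (9.22%), while the more abundant S100a9 was at 0.50 (0.607). This call was lost without the same 4 lungs, each in turn (edgeR adjusted p up to 0.101), and in the fit over all 15 libraries (0.235). Fat cell markers (7 genes) summed to 231, 293 and 74.7 CPM with CS and 254, 34.7 and 15.9 with PS, with Adipoq at 0 in PS lungs 2 and 3 and 0 of 7 called. Airway secretory markers (5 genes, 0 called) were detected in full in all 6 lungs, but 4 of them were lowest in PS lungs 2 and 3. Bpifa1 stood at 3.01 and 15.5 CPM there against 210 to 1414 in the other lungs, Scgb3a1 at 9.82 and 16.1 against 185 to 790, and Muc5b at 0.223 and 6.18 against 44.2 to 92.5. PS lung 2 was also the lowest lung for Hp. Alveolar type II markers (5 genes, 0 called) were detected in full in all 6 lungs, and the diets did not overlap for 3 of them, where 36% of all tested genes had no overlap. Sftpb lay between 2241 and 2304 CPM with CS and between 2323 and 2359 with PS. Sftpc, a surfactant protein, stood at 13286 ± 535 CPM with CS and 23403 ± 6147 with PS (log2 fold change 0.82, edgeR adjusted p = 0.0764), and Abca3, a lipid transporter, at 196 ± 2.38 and 98.0 ± 44.3 (-0.9995, 0.0549). Alveolar macrophage markers (6 genes, 0 called) summed to between 522 and 668 CPM. Within this list Ear1 stood at 17.5, 16.7 and 20.6 CPM with CS and 25.1, 42.0 and 12.7 with PS, and Ear2 at 43.4, 49.4 and 49.1 and at 65.1, 92.6 and 32.7. Both were highest in PS lungs 1 and 2 and lowest in PS lung 3, as Lcn2 and Saa3 were. Chil3, the most abundant of the list, had the same highest and lowest lungs, at 255, 265 and 242 CPM with CS and 270, 327 and 204 with PS. The list did not move as one. Car4 was highest in PS lung 3 (272 CPM against 191 to 240) and Marco in CS lung 1 (8.24 against 2.87 to 6.21). Siglecf stood at 5.10 ± 0.314 CPM with CS and 8.17 ± 2.88 with PS (log2 fold change 0.68, edgeR adjusted p = 0.142). The part of these cells in the Lcn2, Saa3 and Hp values was not tested.

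The tissues were then compared in a fit over all 15 libraries, in which CPM were set on 1 scale. Of the 10 members, 9 were called lower in the lung and 1, Lcn2, was not called, where 76.7% of 17696 tested genes were called, with 34.4% of the tested genes lower in the lung and 42.3% higher. Liver and lung libraries did not overlap for 8 members, all but Lcn2 and Saa3, where 51.5% of tested genes had no overlap. The 8 kept their direction and their call under each scaling tried. The ratio of mean liver to mean lung CPM was 13.0 for Hp, 381 for Orm2, 1340 for Orm1, 2064 for Saa1, 2801 for Hpx and 4075 for Saa2. Single libraries weighed on these ratios. Without PS liver 1 they were 1204 for Saa1 and 1510 for Saa2. Without CS lung 1, the lung with the most hepatocyte transcripts, they were 3068 for Saa1, 3682 for Hpx and 19014 for Crp, against 5393 for Crp with it. For Saa4 the ratio was 8134 with CS lung 1 and 16742 without it, on 10 counts over all lungs. Saa4 in the PS mice was at least 14330-fold lower in the lung on this scale and at least 5532-fold lower by column totals, both computed with a floor of 3 counts over the 3 lungs that had none.

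Hp was lower in the lung than in the liver by a smaller ratio than most members. It was at 8922 ± 3068 CPM in the livers and 687 ± 179 in the lungs (log2 fold change -3.69 ± 0.33, 95% interval -4.38 to -3.00, edgeR adjusted p = 1.98e-08). Within the 6 mice that gave both tissues, lung Hp was between 3.67% and 15.3% of liver Hp. For the 7 members other than Hp, Saa3 and Lcn2 and for 10 hepatocyte markers, the highest value in any mouse was 1.11%, of Orm2. Ratios of liver to lung below that of Hp were also found outside the members, as for Cp (8.22), Serping1 (6.33), Lbp (7.64) and Orm3 (9.70). Alb in the lung was between 0.000184% and 0.0460% of its level in the liver of the same mouse.

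Saa3 and Lcn2 were the members nearest to parity. Saa3 was at 9.37 ± 4.42 CPM in the livers and 3.73 ± 1.99 in the lungs, with overlapping libraries (log2 fold change -1.29 ± 0.38, edgeR adjusted p = 0.00527), and Lcn2 was at 87.7 ± 98.1 and 65.3 ± 25.7 (-0.22 ± 0.54, 95% interval -1.36 to 0.93, edgeR adjusted p = 0.727). Both values depended on the scaling. With no scaling beyond the column totals, which moves the median of all genes from 0.17 to 1.55, Saa3 was at 0.08 (edgeR adjusted p = 0.835) and Lcn2 was called higher in the lung at 1.19 (0.0424). In the CS mice alone Saa3 was not called (-1.25, edgeR adjusted p = 0.0533), and in the PS mice alone it was (-1.33, 0.0326).

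**Figure D5:**
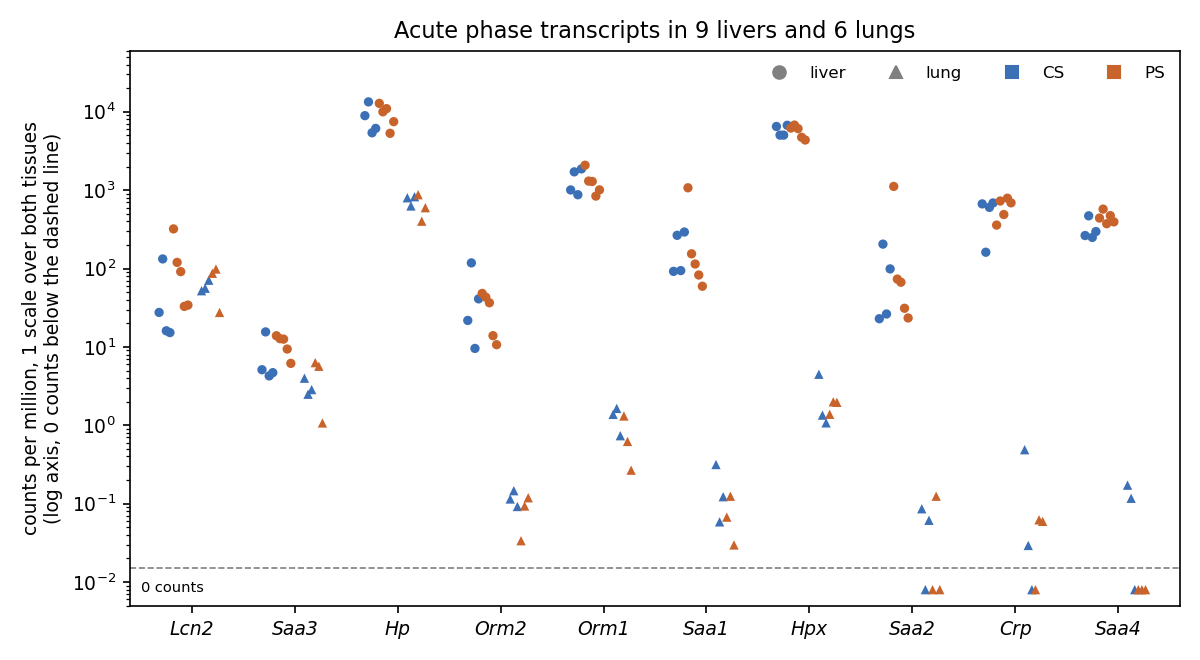
CPM on 1 scale over both tissues (log axis) for the 10 members in 9 livers (circles) and 6 lungs (triangles), colored by diet, with libraries at 0 counts below the dashed line. The tissues overlap for Lcn2 and for Saa3, whose order depends on the scaling, and Saa4 is at 0 in all 3 PS lungs.

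The difference of the diet effect between the tissues was not called for any of the 10 members in edgeR (0 of 10, where 0.0226% of tested genes were called). The estimate was below 0 for 9 members and above 0 for 1, with a median of -0.89 against 0.0019 for all genes tested, and 5 of the 10 had at most 17 counts in any lung. The log2 difference, lung minus liver, was -0.40 ± 0.55 for Hp (edgeR adjusted p = 0.814), -1.07 ± 1.09 for Lcn2 (0.731), from -2.36 without CS liver 2 to -0.29 without PS liver 1, and -0.09 ± 0.73 for Saa3 (0.9999). An unadjusted p at most 0.05 was found for 1 member, Saa4, against 10.9% of all genes, and rests on the 10 counts of 2 CS lungs against 0 counts in the PS lungs (edgeR adjusted p = 0.264). DESeq2's Wald test called it (adjusted p = 0.0460), as it did 1.32% of all genes.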

How the data were processed

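RNA-seq of 9 livers and 6 lungs was analysed from gene tables. The authors aligned cleaned reads to mm10 with HISAT2 2.0.5 and counted them with featureCounts 1.5.0-p3, and the counts were deposited raw. FPKM values deposited by the authors equal these counts over gene length and a factor for each library. Strand use and the treatment of reads matching several genes are not given in the sources used here. The authors' new-gene prediction was not used.

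Counts were tested with edgeR 4.0.16 in R 4.3.3 (TMM, default filter on low counts, robust quasi-likelihood test, Benjamini-Hochberg adjustment over all genes), PS against CS within each tissue, and lung against liver and the difference of the diet effects in 1 fit over 15 libraries. CPM were computed from the counts with the TMM library sizes of each fit, and FPKM served for levels between genes. Single values were tested by exact permutation. Alternatives were DESeq2 1.42.0, limma 3.58.1 on log2(FPKM + 1) and log2(FPKM + 0.1), other filters (none, or 10 counts in every library) and scalings, a replicate block and leaving out libraries. The procedures were tested on simulated counts with known changes. Of 100 2-fold changes, edgeR recovered 39 in the liver, 12 in the lung and 0 for the difference of the diet effect. Of 100 4-fold changes it recovered 97, 90 and 43. The simulated spread was set the same for every gene, so these rates were not established for the members. Depth was 14410117 to 19396057 counts a library. P-values measure the spread between mice.

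Sequences are RefSeq's for GRCm38.p6, and transcript identity came from blastn. The 10 members and the lists were chosen with earlier results of these data known. Genes named outside the members were those of each list called in a diet test, otherwise up to 3 with the smallest p, up to 3 of the highest level, Il6, Il1b, Tnf, Stat3, Socs3, Orm3 and the genes most like Saa1 and Saa3. A gene that this rule names is not reported here. Cebpd in the liver, Cebpb in the lung, Adipoq, Cidec, Cfd, Bpifa1, Scgb3a1, Muc5b, Sftpb, Sftpc, Abca3, Chil3, Ear1, Ear2, Car4, Marco, Siglecf, Il6st, Lifr and, between the tissues, Serping1 and Lbp were named after their values were seen. The replicate numbers did not pair the samples (correlations of same-numbered deviations from -0.411 to -0.0241 in the liver). Mice pair liver with lung, by their names in the labels, and the fit with mouse as a block is an alternative.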

Additional observations from a re-analysis of the deposited data

Results flagged for a closer look

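In the liver, 5 member values stood far from the rest of their diet group, by the gap to the nearest library over the group's range. In PS liver 1, Saa1 was at 740 CPM and Saa2 at 770 CPM, against 40.2 to 104 and 15.8 to 49.4 in the other 4 PS livers. In CS liver 2, Saa3 was at 11.1 CPM and Lcn2 at 94.3 CPM, both the highest of their group, and Crp at 115 CPM was the lowest. In all, 20 groups of 4 or 5 livers were examined, 5 had such a library, and chance flags about 1 in 20 groups where these are independent and normally distributed. Here the 5 values come from 2 livers, Saa1 and Saa2 moved together, and CPM were not transformed, so that this rate was not established for them. Both livers had fewer detected genes than the other 7 (15961 and 16207, against 18250 to 19598), and the part of this in the values was not tested.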

How the results depend on the processing

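The count of members called was 0 in the liver under all 19 alternatives (smallest edgeR adjusted p = 0.0885, without CS liver 2), and 9 or 8 of 10 between the tissues under 22. In the lung it was 0 under 8 alternatives, and 0 to 1 when libraries were left out, the call being Lcn2 without PS lung 3. For the difference between tissues it was 0, except 1 (Saa4) by DESeq2's Wald test. Leaving out each library in turn moved the liver log2 fold change from -0.88 to 0.95 for Saa1, -0.90 to 2.44 for Saa2, -0.32 to 0.10 for Orm1, -1.02 to 0.35 for Orm2, -0.051 to 0.46 for Hp, -0.13 to 0.022 for Hpx and -0.094 to 0.34 for Crp. In the lung it ran from -0.54 to 0.00086 for Hp, -0.63 to 0.56 for Hpx, -0.045 to 0.65 for Lcn2, -1.45 to -0.37 for Orm1 and 0.14 to 0.95 for Saa3. Between the tissues it ran from -0.37 to 0.42 for Lcn2, and for the difference of the diet effect from -0.74 to 0.37 for Saa3, -0.67 to 0.60 for Hpx and -2.36 to -0.29 for Lcn2. In the liver, Saa1 was -0.062 and -0.053 by limma on log2(FPKM + 0.1) and log2(FPKM + 1). Without CS liver 2 and PS liver 1 together, a choice made after seeing the data, Saa1 was -0.63, Saa2 -0.0076 and Orm2 0.12. Orm1 was 0.26 in the 6 mice with both tissues. Lung against liver, Saa3 was 0.081 and Lcn2 1.19 with no scaling beyond the column total, and Lcn2 was 0.32 in the CS mice alone. The causes were not tested.

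With the replicate number as a block, Orm1 was 0.0075 and Hpx 0.020 in the liver, and 0 members were called in either tissue. The numbers did not pair the samples. With mouse as a block, over 12 libraries of 6 mice, 9 members were called between the tissues and Lcn2 was 0.052. Genes called over all features by DESeq2's Wald test were 163 in the liver and 3090 in the lung, against 1 and 1542 by edgeR. Without the filter these counts were 26 and 2306, and they ran from 0 to 65 and from 0 to 2949 when a library was left out. In the lung 5 members were below the filter; without it all 10 were tested and 0 called.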
